A study of Mus musculus with 4 samples.

Results

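Ubiquitin-specific proteases, the largest family of deubiquitinating enzymes, were followed through the accessible chromatin of mouse pachytene spermatocytes. Their genes were taken as every protein-coding gene of the RefSeq table for GRCm38.p6 whose symbol is Usp followed by a digit, the Usp17l genes included, which gave 56 genes of 21887 on chromosomes 1 to 19, X and Y. One of the 56, Usp6nl, meets the rule by its symbol but encodes a GTPase-activating protein for Rab5 and not a protease. Accessibility had been measured by ATAC-seq, in which the transposase Tn5 cuts and tags open chromatin, in nuclei of pachytene spermatocytes from testis. The groups were labelled Znhit1_KO and CTRL, and every sample title carries the tag P35, which the labels do not explain. ZNHIT1 is a subunit of the SRCAP complex, which places the histone variant H2A.Z into nucleosomes. The labels give 2 libraries per genotype, and 1 peak list per genotype was analysed here. The labels do not state how the gene was deleted, which promoter drove any recombinase, whether animals were pooled or what else the CTRL animals carried.

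The peak lists hold positions only, with no height or read count, so a gene end either had a peak or had none, and the width of the peak was the sole graded measure. The Znhit1_KO list held 21004 distinct intervals and the CTRL list 15376, and the number of reads behind each is unknown. Differences between the genotypes therefore carry no p-value, since each rests on 1 list per genotype, and a longer list can by itself place more genes in the Znhit1_KO list alone. Of 12 marker genes of pachytene spermatocytes, 10 had a gene-end peak in the Znhit1_KO list and 8 in the CTRL list, with Ccna1 and Adam2 in neither. Of 25 markers of spermatogonia, spermatids, Sertoli cells and other somatic cells, Acta2 had one in the Znhit1_KO list. Dmrt1 had one in the CTRL list, and the other markers had none. The background for these marker counts, taken over all genes, was 38.4% for the Znhit1_KO list and 33.2% for the CTRL list. Whether the marker sets differ from this background was not tested. At Znhit1 itself each list had a gene-end peak, which does not check the deletion.

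Ubiquitin-specific proteases cut ubiquitin from proteins or from ubiquitin chains, and so reverse the work of ubiquitin ligases. In male germ cells ubiquitin on histones H2A and H2B marks the silenced sex chromosomes at pachytene and later accompanies the exchange of histones for protamines, and several family members are known from the testis, among them Usp26, Usp2, Usp7, Usp14 and Usp1. Most of the family is autosomal, with 50 genes on autosomes, 5 on the X chromosome and 1, Usp9y, on the Y chromosome.

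Most Usp genes had an accessible end, and most of those had one in both genotypes, as did most such genes over all. A gene-end peak, meaning a peak that reaches within 1 kb of either annotated end of the gene, was present in both lists at 25 of the 56 genes (44.6%, Wilson 95% interval 32.4 to 57.6, counting error only). In the Znhit1_KO list alone there were 9 (16.1%, 8.69 to 27.8), in the CTRL list alone 3 (5.36%, 1.84 to 14.6), and in neither 19 (33.9%, 22.9 to 47.0). Over all 21887 genes the shares were 28.6% in both, 9.81% in the Znhit1_KO list alone, 4.66% in the CTRL list alone and 57% in neither. Of the 37 Usp genes with a gene-end peak in either list, 25 had one in both, against 6255 of 9421 such genes over all. On this point the family was near the background. For the genes in 1 list alone, the interval of the Usp share held the background share for both genotypes. The share in both lists lay above the background and the share in neither below it, and whether this sets the family apart was not tested. Among other gene families of the ubiquitin system, 28 of 78 F-box genes (35.9%) and 13 of 68 TRIM genes (19.1%) had a peak in both lists. So had 21 of 39 genes of the other deubiquitinase families (53.8%), a higher share than that of the Usp genes. A raised share in both lists was thus not particular to the Usp genes.

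**Figure D1:**
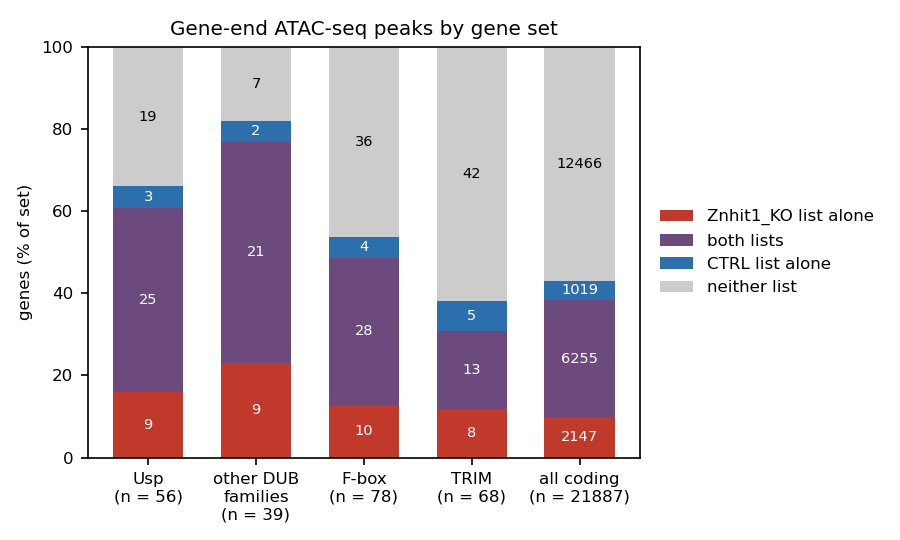
Share of genes (%, vertical axis) with a gene-end peak in the Znhit1_KO list alone, in both lists, in the CTRL list alone and in neither, for the Usp genes, 39 genes of the other deubiquitinase (DUB) families, F-box genes, TRIM genes and all protein-coding genes; numbers inside the bars are genes. Of the 56 Usp genes, 9 stood in the Znhit1_KO list alone, 25 in both, 3 in the CTRL list alone and 19 in neither.

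Many intervals stood on several lines of their list, and with only those listed at least 2 times, 11 Usp genes were in both lists, 10 in the Znhit1_KO list alone, 8 in the CTRL list alone and 27 in neither, against 15.9%, 7.71%, 6.56% and 69.9% of all genes. The peaks of the Znhit1_KO list and the CTRL list overlapped each other at 24 of the 25 genes with all intervals counted, against 97.3% of the 6255 genes in both lists. At 21 they did so over at least 50% of both, against 83.1%, so both counts were near the background. The exception was Usp6nl, whose peak in the Znhit1_KO list spanned the gene's 5' end (896 bp) and whose peak in the CTRL list was a narrow one beyond its 3' end (176 bp).

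The Usp genes found in the Znhit1_KO list alone included 4 with wide peaks. Usp25, a paralogue of the MYC-stabilising protease Usp28, had a peak of 886 bp in the Znhit1_KO list at its 5' end (chromosome 16, 77013445 to 77014330, mm10) and no gene-end peak in the CTRL list. Usp35 had one of 879 bp in the Znhit1_KO list at its 5' end, which it shares with Kctd21, and its sole peak in the CTRL list lay inside the gene, 5385 bp from that end. Usp9x, the X-linked homologue of the fly gene fat facets, had peaks of 858 and 493 bp in the Znhit1_KO list and none in the CTRL list. Usp24 likewise had a pair of peaks in the Znhit1_KO list, of 797 bp over its start and of 817 bp further into the gene, and its sole peak in the CTRL list lay deep inside the gene. With peaks within 200 bp of each other merged, the peak of the Znhit1_KO list was 1459 bp at Usp9x and 1717 bp at Usp24. Usp35 left the class when peaks at another gene's end were left out.

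The other 5 genes of that class had narrower peaks. Usp26, an X-linked protease gene expressed in testis, had a peak of 506 bp in the Znhit1_KO list at its 5' end (chromosome X, 51800775 to 51801280, mm10) and none in the CTRL list. Usp39, a spliceosome component that has lost protease activity, had one of 483 bp, and Usp33, which acts on receptor recycling and the VHL pathway, had one of 475 bp. The peaks of Usp40 (201 bp) and Usp30, a protease of the outer mitochondrial membrane (159 bp), were the narrowest and lay outside the gene, 240 and 422 bp from its annotated end. Both of these were lost from the class when peaks under 300 bp were left out, or when each list was limited to its 15376 widest peaks. Of the 9 genes, 5 had a peak listed at least 2 times, and Usp30, Usp33, Usp39 and Usp40 had none and were in neither list when only such intervals counted. Under the 3 kb window Usp33 was in both lists, with a peak of 1266 bp in the Znhit1_KO list and 1208 bp in the CTRL list.

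The 3 genes found in the CTRL list alone were Usp14, Usp27x and Usp45. Usp14, the protease bound to the proteasome's regulatory particle, had a peak of 683 bp in the CTRL list over one end of the gene and none in the Znhit1_KO list, and it kept this class under every alternative tried. Usp27x, an X-linked gene whose product works with the SAGA subunits ATXN7L3 and ENY2 on ubiquitinated H2B, had one of 338 bp in the CTRL list at its 5' end. The Usp27x peak also overlapped the tabulated promoter of Gm14379. Usp45, which acts on the repair nuclease subunit ERCC1, had one of 247 bp in the CTRL list, a peak that also counts for Tstd3. With only intervals listed at least 2 times, Usp27x and Usp45 were in neither list, and Usp45 was also in neither among peaks of at least 300 bp.

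Of the 16 members known from testis or germ cells, Usp1, Usp2, Usp8 and Usp29 were accessible at an end in both lists, Usp9x and Usp26 in the Znhit1_KO list alone and Usp14 in the CTRL list alone. The other 9, with none, were Usp7, Usp9y, Usp42, Usp44 and the 5 Usp17l genes. These counts, 4 in both lists and 9 in neither of 16, lay near the shares over all genes of 28.6% and 57%.

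The sequences just upstream of the start are shown for genes whose peak differed between the lists, with Usp47, which had a wide peak in both, for comparison. Each is the 250 bases before the annotated start, from RefSeq (GRCm38.p6), written 5' to 3' along the gene, and capitals mark matches to the motifs named further on, on either strand. The positions are chrX:51801234-51801483 (minus strand) for Usp26, chr16:77013819-77014068 (plus strand) for Usp25, chr7:97332110-97332359 (minus strand) for Usp35, chrX:7375831-7376080 (minus strand) for Usp27x, chr9:44084670-44084919 (plus strand) for Usp2 and chr7:112023256-112023505 (plus strand) for Usp47.
Usp26: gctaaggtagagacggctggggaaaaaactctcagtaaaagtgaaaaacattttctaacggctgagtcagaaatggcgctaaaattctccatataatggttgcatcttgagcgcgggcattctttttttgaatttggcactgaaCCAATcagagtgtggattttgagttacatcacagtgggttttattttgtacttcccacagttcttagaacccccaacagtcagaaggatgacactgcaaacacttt
Usp25: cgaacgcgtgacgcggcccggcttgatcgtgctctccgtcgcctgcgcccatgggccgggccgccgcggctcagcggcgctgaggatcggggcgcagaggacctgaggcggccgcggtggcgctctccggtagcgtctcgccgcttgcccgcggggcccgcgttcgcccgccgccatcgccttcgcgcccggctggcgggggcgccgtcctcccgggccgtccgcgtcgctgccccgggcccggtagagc
Usp35: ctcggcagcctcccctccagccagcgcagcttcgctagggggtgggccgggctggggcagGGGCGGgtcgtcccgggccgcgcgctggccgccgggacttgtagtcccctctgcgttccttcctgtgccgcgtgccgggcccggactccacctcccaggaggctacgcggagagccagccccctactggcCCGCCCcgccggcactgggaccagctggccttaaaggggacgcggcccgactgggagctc
Usp27x: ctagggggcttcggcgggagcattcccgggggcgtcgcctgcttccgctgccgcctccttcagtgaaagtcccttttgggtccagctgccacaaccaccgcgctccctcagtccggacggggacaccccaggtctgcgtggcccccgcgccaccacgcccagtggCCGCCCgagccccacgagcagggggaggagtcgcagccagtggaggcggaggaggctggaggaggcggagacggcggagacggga
Usp2: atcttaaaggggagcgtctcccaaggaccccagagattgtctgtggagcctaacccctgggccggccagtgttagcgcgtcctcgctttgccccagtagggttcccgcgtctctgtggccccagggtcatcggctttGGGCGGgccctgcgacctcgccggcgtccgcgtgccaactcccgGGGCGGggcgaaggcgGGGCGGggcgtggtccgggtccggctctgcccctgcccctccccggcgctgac
Usp47: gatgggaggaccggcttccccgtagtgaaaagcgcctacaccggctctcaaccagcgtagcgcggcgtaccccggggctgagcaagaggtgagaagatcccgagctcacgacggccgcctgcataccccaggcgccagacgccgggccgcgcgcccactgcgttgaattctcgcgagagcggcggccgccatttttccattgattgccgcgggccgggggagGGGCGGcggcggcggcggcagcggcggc
All 250 of these bases lay in the peak of the Znhit1_KO list and 0 in a peak of the CTRL list at Usp25 and Usp35. At Usp26 the peak in the Znhit1_KO list covered 47 of them, its larger part lying inside the gene, and the CTRL list had none there. At Usp27x 0 bases lay in a peak of the Znhit1_KO list and 126 in the peak of the CTRL list, and at the Usp2 start shown here the numbers were 0 and 210. At Usp47 all 250 lay in a peak in the Znhit1_KO list and in the CTRL list. The Usp26 stretch is poor in CpG, with 5 of these dinucleotides and 41.2% G and C, against 47 and 80% at Usp25.

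Of the 5 X-linked members 0 were in both lists, against 4.04% of the 966 X-linked genes, so this count was near the background. Usp9x and Usp26 had a gene-end peak in the Znhit1_KO list alone and Usp27x had one in the CTRL list alone, while Usp11, a protease that associates with BRCA2, and Usp51, a histone H2A and H2B protease, had none. Over all X-linked genes, 4.14% were in the Znhit1_KO list alone and 2.17% in the CTRL list alone, against 2 and 1 of the 5 members. A gene-end peak in either list was seen at 10.4% of X-linked genes, 79 in the Znhit1_KO list and 60 in the CTRL list. It was seen at 3 of the 5 members (Wilson 95% interval 23.1 to 88.2%). The shares of the members in 1 list alone and in either list lay above these. Whether this sets them apart was not tested with so few genes. The X chromosome is transcriptionally silenced in pachytene spermatocytes, and whether that bears on these genes was not tested. On the Y chromosome Usp9y had no peak, and 3 of 256 Y-linked genes had one.

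Among the 13 genes whose products are known to act on histones H2A or H2B, the count was 7 for a gene-end peak in both lists, 0 in the Znhit1_KO list alone, 1 in the CTRL list alone and 5 in neither, against 28.6%, 9.81%, 4.66% and 57% of all genes. Usp22, the protease of the SAGA coactivator, had the widest peak of the family in the Znhit1_KO list (1207 bp, against 1008 bp in the CTRL list). Usp16, a protease of ubiquitinated H2A, had 649 bp in the Znhit1_KO list and 710 bp in the CTRL list, and Usp3, with the same substrate, had 361 and 475 bp. The order at Usp3 turned when peaks within 200 bp were merged, with 849 bp in the Znhit1_KO list and 475 bp in the CTRL list, and the 3 kb window gave 571 and 570 bp. Usp36, a nucleolar protease, had 612 bp in the Znhit1_KO list and 1300 bp in the CTRL list, the widest peak of the family in that list. Usp21 also had the narrower peak in the Znhit1_KO list, with 330 bp against 847 bp in the CTRL list, but this widest peak lay beyond its 3' end at Ppox, and over its own start the widths were 275 bp in the Znhit1_KO list and 570 bp in the CTRL list. The 5 partner genes of the SAGA deubiquitinase module, Atxn7, Atxn7l1, Atxn7l2, Atxn7l3 and Eny2, had a peak in both lists.

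Of 8 genes with a role in DNA damage responses, 5 were accessible at an end in both lists, 1 in the CTRL list alone and 2, Usp7 and Usp11, in neither, against 28.6%, 4.66% and 57% of all genes. Usp1, which removes ubiquitin from FANCD2 and PCNA and is needed for male fertility in mice, had a peak of 913 bp over one end of the gene in the Znhit1_KO list and one of 242 bp in the CTRL list, which stopped 665 bp short of the gene. These peaks met over 102 bp, and with a window of 500 bp Usp1 stood in the Znhit1_KO list alone. Usp28 (978 bp in the Znhit1_KO list and 980 bp in the CTRL list), Usp47, which acts in base excision repair (1062 and 1157 bp), and Usp48 (1039 and 1045 bp) had wide peaks of nearly the same width. The gene-end peak of Usp4 (449 bp in the Znhit1_KO list and 612 bp in the CTRL list) lay at its 3' end, at the promoter of 1700102P08Rik. With peaks that also lay at another gene's end left out, Usp4 was in neither list.

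Of 5 genes acting in endosomes and membrane traffic, both lists held a gene-end peak for 4, and 1 had it in the Znhit1_KO list alone. Over all genes these shares were 28.6% and 9.81%, and whether this small group differs was not tested. Usp8, which sorts receptors at the endosome, had almost the same peak in both lists, 730 bp in the Znhit1_KO list and 731 bp in the CTRL list. Usp10, which in human cells removes ubiquitin from p53 and from H2A.Z, had 874 bp in the Znhit1_KO list and 766 bp in the CTRL list. Usp20 had 790 bp in the Znhit1_KO list and 1044 bp in the CTRL list, in a peak it shares with BC005624, and its paralogue Usp33 was in the Znhit1_KO list alone. Usp2, a short protease with broad substrates, had 413 bp in the Znhit1_KO list and 783 bp in the CTRL list. Usp6, also listed for this role, did not match the gene table used.

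Of the genes that act on the spliceosome, Usp15 (966 bp in the Znhit1_KO list and 769 bp in the CTRL list) and Usp4 were in both lists. Of those that act at the proteasome or on free ubiquitin chains, Usp5, which takes apart unanchored chains, had 893 bp in the Znhit1_KO list and 783 bp in the CTRL list, while its paralogue Usp13 had no peak. The order at Usp5 turned when peaks within 200 bp were merged, with 893 bp in the Znhit1_KO list and 1303 bp in the CTRL list. Usp18, which removes the ubiquitin-like protein ISG15, had none. Usp29, an imprinted gene that lies head to head with Peg3, had 415 bp in the Znhit1_KO list and 560 bp in the CTRL list in a peak that ended 779 bp before the gene on the Peg3 side. This placed Usp29 outside a window of 500 bp, and its widest peak was 704 bp in the Znhit1_KO list and 919 bp in the CTRL list under the 3 kb window, and 415 and 1669 bp with peaks merged. The remaining genes in both lists were Usp12, Usp19, Usp31, Usp32, Usp38, Usp49 and Usp53. Usp12, which like Usp1 and Usp46 needs the cofactor WDR48, had 517 bp in the Znhit1_KO list and 311 bp in the CTRL list. The peak of 517 bp lay 338 bp inside the gene and overlapped no peak of the CTRL list, and over the start the widths were 430 bp in the Znhit1_KO list and 311 bp in the CTRL list. With peaks within 200 bp merged, the peak of the Znhit1_KO list was 1143 bp. Usp19, an enzyme anchored in the endoplasmic reticulum membrane, had 578 bp in the Znhit1_KO list and 331 bp in the CTRL list. Usp49, which acts on H2B, had 724 bp in the Znhit1_KO list and 670 bp in the CTRL list. These peaks lay outside the gene, 814 and 812 bp from its 5' end, so Usp49 was in neither list under a window of 500 bp. With only intervals listed at least 2 times, Usp49 was in the Znhit1_KO list alone. Usp53, an inactive member needed for hearing in mice, had 938 bp in the Znhit1_KO list and 925 bp in the CTRL list. The peaks of Usp12 and Usp19 were thus wider in the Znhit1_KO list, while Usp49 and Usp53 had peaks of nearly equal width. Usp31 (402 bp in the Znhit1_KO list and 734 bp in the CTRL list), Usp32 (1004 and 1214 bp) and Usp38 (797 and 911 bp) had the wider peak in the CTRL list.

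**Figure D2:**
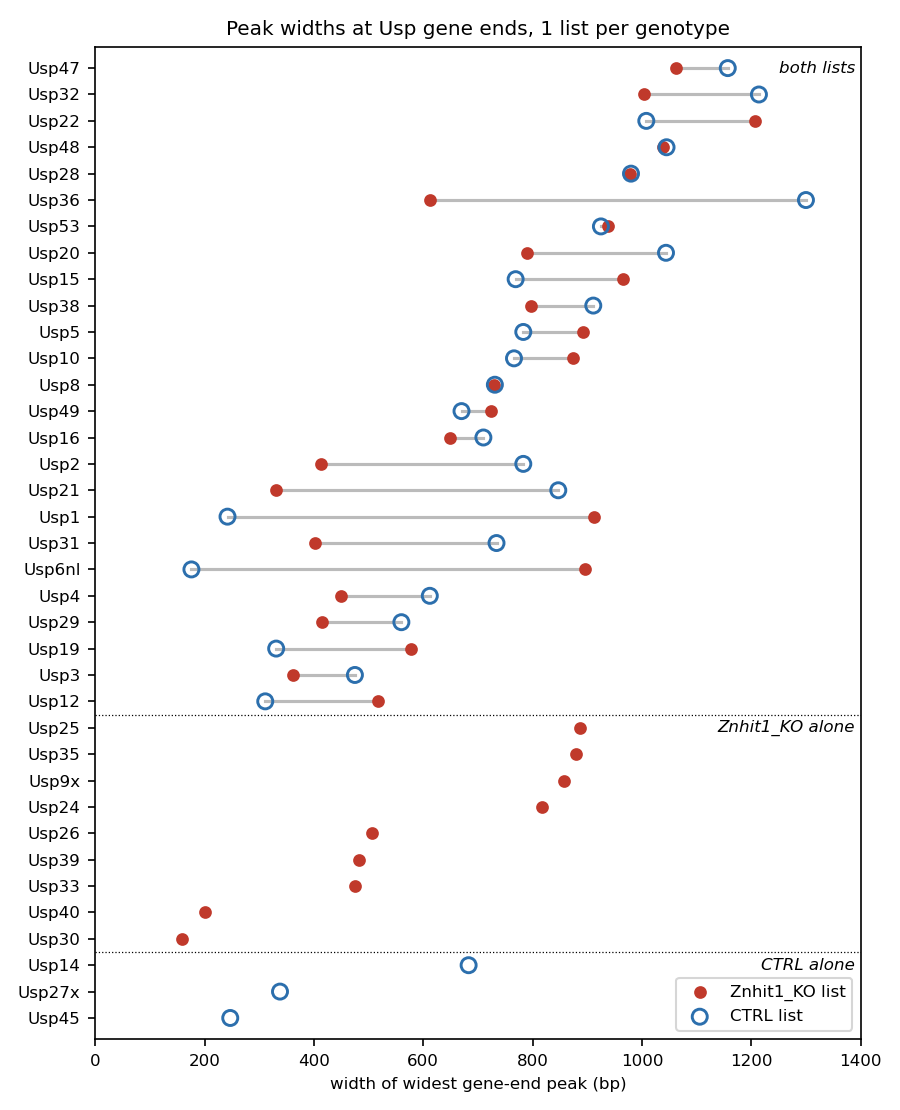
Width in bp (horizontal axis) of the widest gene-end peak of each of the 37 Usp genes that had one, in the Znhit1_KO list (filled points) and the CTRL list (open points), 1 list per genotype; grey lines join the values of a gene in both lists. Usp36, Usp2 and Usp21 are narrower in the Znhit1_KO list, Usp1 is wider, Usp8 and Usp28 have nearly equal widths, and the values of Usp6nl belong to peaks at opposite ends of the gene.

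Median peak widths over the family were close in the lists of both genotypes. The widest gene-end peak had a median width of 760 bp over the 34 genes with one in the Znhit1_KO list and 750 bp over the 28 in the CTRL list. Among the 25 genes in both lists the peak was wider in the Znhit1_KO list at 10 and wider in the CTRL list at 15, against 53.2% and 46.7% of 6255 genes. The median log2 ratio of Znhit1_KO to CTRL width was -0.01 (quartiles -0.40 and 0.19), and over the 6255 genes it was 0.04 (quartiles -0.29 and 0.40). A ratio of at least 1.5 was seen at 4 genes, Usp6nl, Usp1, Usp19 and Usp12, and was seen at 17.1% of all genes in both lists. At Usp6nl and Usp12 the peaks compared did not overlap each other, and over the start of Usp12 the ratio was below 1.5. The opposite, a CTRL peak at least 1.5 times as wide, was seen at 4 genes, Usp21, Usp36, Usp2 and Usp31, and at 11.5% of all genes. At 7 of the 25 genes the widths lay within 10% of each other, and the share over all genes is not given for this count.

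**Figure D3:**
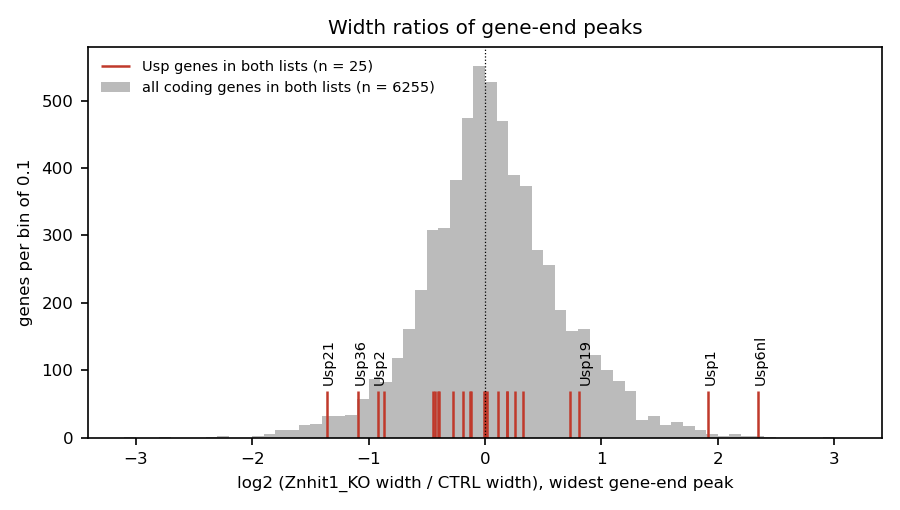
Histogram of the log2 ratio of Znhit1_KO to CTRL width of the widest gene-end peak (horizontal axis) over the 6255 protein-coding genes in both lists (vertical axis, genes per bin), with red ticks for the 25 Usp genes. The Usp ticks run from Usp21 at -1.36 to Usp6nl at 2.35, with a median of -0.01.

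Some Usp genes without a gene-end peak had one near a start tabulated inside the gene. The RefSeq promoter table gives a start for 43 of the 56 genes, and at 9 of them a start lies more than 1 kb inside both annotated ends. Usp7, also called HAUSP, which controls MDM2 and p53 and acts with Polycomb complexes, had no peak at either gene end. Its tabulated start lies 18725 bp inside the gene, and there the Znhit1_KO list had a peak of 470 bp beginning 3 bp into the gene from that start, and the CTRL list had one of 246 bp beginning 352 bp into it. Usp37, a cell cycle protease, had peaks of 927 bp in the Znhit1_KO list and 1001 bp in the CTRL list over a start that lies beside that of Cnot9. Usp34 had peaks of 728 and 719 bp in the Znhit1_KO list, with only the second reaching its start, and one of 604 bp in the CTRL list that stopped 362 bp before it. At Usp4 the tabulated start carried peaks of 516 bp in the Znhit1_KO list and 1110 bp in the CTRL list. The inner starts of Usp13, Usp54 and Usp6nl had no peak within 1 kb in either list.

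At a pair of genes the peak at the inner start was in 1 list alone. Usp2, a gene whose rat counterpart makes testis isoforms with different N-termini, had a peak at its outer end in both lists. At the inner start it had none in the Znhit1_KO list. There the CTRL list had one of 719 bp (chromosome 9, 44084710 to 44085428), which also overlapped the tabulated promoter of Gm39325. Usp45 showed the opposite, with a peak of 526 bp over its inner start in the Znhit1_KO list (chromosome 4, 21776098 to 21776623) and none there in the CTRL list. Adding the tabulated starts to the gene ends, an alternative chosen after the data were seen, put 29 genes in both lists, 9 in the Znhit1_KO list alone, 2 in the CTRL list alone and 16 in neither, against 30.6%, 10.5%, 4.86% and 54.1% of all genes. The 4 genes that changed class, Usp7, Usp34, Usp37 and Usp45, were then in both lists.

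**Figure D4:**
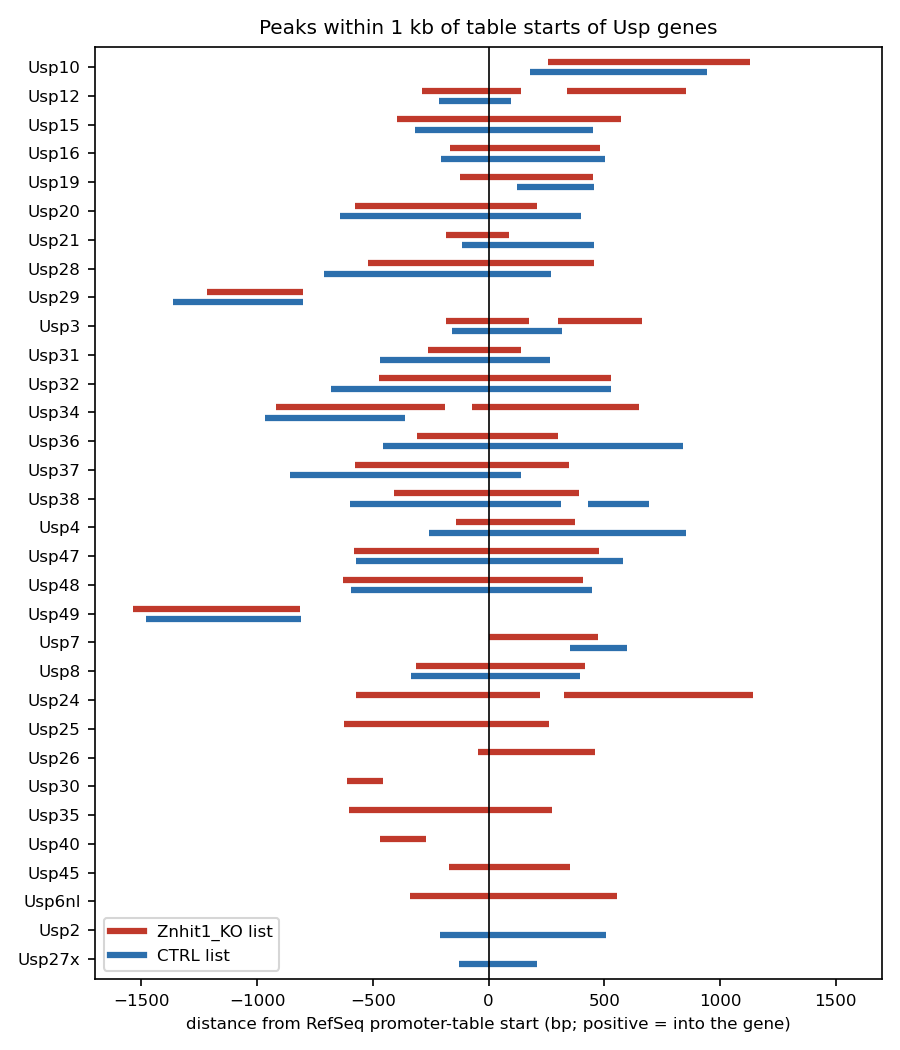
Peaks within 1 kb of the RefSeq promoter-table start of 32 Usp genes, drawn by distance from that start in bp (horizontal axis, positive into the gene), with the Znhit1_KO list above the CTRL list for each gene. Peaks of both lists lie near the start at 22 genes, of the Znhit1_KO list alone at 8 and of the CTRL list alone at 2, Usp2 and Usp27x.

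Where a start was tabulated, most genes with a peak near it had one that covered it, 24 of 30 in the Znhit1_KO list and 18 of 24 in the CTRL list. A peak spanned the start in both lists at 16 genes, in the Znhit1_KO list alone at 8 and in the CTRL list alone at 2. The 8 were Usp19, Usp24, Usp25, Usp26, Usp34, Usp35, Usp45 and Usp6nl. At Usp19 the peak of the CTRL list began 124 bp into the gene, so the start itself lay in the peak of the Znhit1_KO list only. Shares over all genes are not given for these counts of starts, near or covered, so they are not read as a trait of the family. Counted as promoters of 300 bases, 16 of 44 were overlapped by a peak in both lists, 9 in the Znhit1_KO list alone, 2 in the CTRL list alone and 17 in neither, against 26.4%, 8.14%, 3.46% and 62% of 21263 promoters of protein-coding genes.

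Of the 19 genes with no gene-end peak, 7 had a peak inside the gene in at least one list, namely Usp7, Usp34, Usp37, Usp42, Usp43, Usp44 and Usp54. The other 12 had no peak touching the gene in either list, namely Usp11, Usp13, Usp18, Usp46, Usp50, Usp51, Usp9y and the 5 Usp17l genes. The share of all genes without a gene-end peak that held a peak inside is not given here, so these counts stand without a background. The Usp17l genes are a rodent cluster of DUB genes first known as cytokine-inducible in blood cells, and they lie on chromosome 7. Between the 4 of them with a tabulated promoter the identity over the aligned promoter was 54.4% to 83.5%, highest between Usp17lc and Usp17ld. The labels do not say how reads that fit several genes were treated. Near the 1 kb limit, the peak of Usp49 beyond its 3' end in the Znhit1_KO list lay 958 bp from the gene end, inside the window, while the peak of Usp4 at its start in the CTRL list lay 1009 bp from the gene end, outside it. Peaks inside Usp42, a testis-expressed histone protease, lay 1356 bp from the gene end in the Znhit1_KO list and 1294 bp in the CTRL list, also outside. Both of these peaks overlapped the tabulated promoter of D130017N08Rik.

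The promoters under shared peaks were rich in G, C and CpG, as they were over all genes. The 16 Usp promoters overlapped in both lists had a median of 65.7% G and C and 33.5 CpG dinucleotides, and the 17 overlapped in neither had 48.3% and 8. Over all protein-coding genes the medians were 63.7% and 25 for promoters overlapped in both lists and 51.3% and 5 for those overlapped in neither. The 9 overlapped in the Znhit1_KO list alone had a median of 76.7% G and C and ranged from 41.3% at Usp26 to 86% at Usp7, with a median of 36 CpG dinucleotides. Over all protein-coding genes the promoters overlapped in the Znhit1_KO list alone had medians of 61.7% and 21.

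Motifs of factors that act at broadly used or germ cell promoters were counted on both strands of the whole 300 bases of each tabulated promoter, 250 before the start and 50 after it. The GC box (GGGCGG) was present in 28 of 44 Usp promoters (63.6%), against 46.2% of 21263 promoters. The ETS motif (CCGGAAG) was present in 8 (18.2%), against 11.6%, and the NF-Y box (CCAAT) in 14 (31.8%), against 38.2%. The genes with an NF-Y box included Usp26 and the 4 tabulated Usp17l promoters. The CRE half-site (TGACGT) was present in 7 (15.9%), against 8.49%, among them Usp2 and Usp8, and the full CRE (TGACGTCA), which contains it, in Usp29 alone, against 2.23%. The MYB motif (GGCAGTT) was present in 2 (4.55%), against 3.94%, the TATA box (TATAAA) in 5 (11.4%), against 12.6%, and the NRF1 motif in 0, against 1.33%. A match says that these letters stand in the window and nothing about a bound factor.

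Other deubiquitinases stand beside the Usp genes in the same pathway. Of 39 genes of the UCH, OTU, Josephin, JAMM, MINDY and ZUP families, 21 were accessible at an end in both lists, 9 in the Znhit1_KO list alone, 2 in the CTRL list alone and 7 in neither, against 28.6%, 9.81%, 4.66% and 57% of all genes. Psmd14, the deubiquitinase of the proteasome lid, had a peak of 797 bp in the Znhit1_KO list and none in the CTRL list, the opposite of Usp14 at the same particle. Bap1, the H2A protease of the Polycomb deubiquitinase complex, had 1060 bp in the Znhit1_KO list and 1004 bp in the CTRL list. The 3 Josephin genes were in both lists, and of the 5 MINDY and ZUP genes 1 was in both, 3 in the Znhit1_KO list alone and 1 in the CTRL list alone. Of 4 cofactor genes of USP1, USP12 and USP46, Wdr48 and Dmwd were in both lists and Wdr20 and Wdr20rt in neither. Of 6 partner and substrate genes, Gmps, Daxx, Mdm2, Trp53 and Ep400 were in both lists and Ddb2 (745 bp) in the Znhit1_KO list alone.

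Neighbouring genes share some of these peaks. Of the 41 gene-end peaks of Usp genes in the Znhit1_KO list, 11 (26.8%) also lay within 1 kb of another protein-coding gene's end, and of the 32 in the CTRL list 10 (31.2%) did. Over all gene-end peaks the shares were 18.0% in the Znhit1_KO list and 18.9% in the CTRL list. With all such peaks left out, 18 Usp genes were in both lists, 8 in the Znhit1_KO list alone, 2 in the CTRL list alone and 28 in neither, against 19.1%, 8.16%, 3.97% and 68.8% of all genes.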

How the data were processed

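The authors deposited peak lists, and 1 recorded for each genotype was analysed. Each deposited list has 3 columns and no header, per the values: the chromosome, the start and the end of each peak. Per the submitters' processing notes, the tools were MACS2 2.2.4, Picard 2.20.7, Bowtie2 2.3.4.3 and cutadapt 2.5, with the build mm10 and no role for any tool. The labels state neither the peak threshold, nor any Tn5 shift or read filter, nor whether replicates were pooled. The depth behind each list is unknown.

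Identical intervals were counted a single time, which left 21004 of 29656 lines in the Znhit1_KO list and 15376 of 24167 in the CTRL list. Genes came from the RefSeq table of GRCm38.p6, which has the primary chromosomes of mm10. The table has no strand, so strand came from the promoter table, for 43 of 56 genes. Peaks were assigned with pandas 2.3.3 and numpy 2.4.6 under Python 3.11.15, intervals came from scipy 1.17.1, and matplotlib 3.10.9 drew the figures. The assignment was tested on 4000 simulated peaks with window edges included, where bedtools 2.31.1 gave the same 2958 genes. Positions are 1-based. F-box genes (Fbxl, Fbxo, Fbxw) and TRIM genes (Trim) were taken by symbol. Alternatives were windows of 500 bp and 3 kb, intervals listed at least 2 times, peaks of at least 300 bp, equal numbers of widest peaks, merging within 200 bp, the 5' end only (both ends where no strand was known), and shared peaks left out.

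The members, gene lists and named genes were chosen with earlier results of these data known. Named with values are all genes in 1 list alone, the 5 widest and 5 narrowest in both lists, the 5 largest and 5 smallest width ratios, X- and Y-linked members and members known from testis. Further members were named after their values were seen. No separate list for the other 2 libraries was analysed here, and whether their reads entered the lists used is not stated.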

Additional observations from a re-analysis of the deposited data

How the results depend on the processing

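The number of Usp genes in the Znhit1_KO list alone ranged from 7 to 11 over 9 alternatives and that in neither list from 15 to 28, within 1.5 times of the values reported. The number in both lists ranged from 11 to 29 over 11 alternatives and that in the CTRL list alone from 2 to 8 over 9. Only the limit to intervals listed at least 2 times moved a count by more than 1.5 times, to 11 in both lists and 8 in the CTRL list alone. It changed the class of 20 genes, and why was not tested. Under the 3 kb window 5 genes changed class, under the 500 bp window 4, among peaks at least 300 bp wide 5, with equal numbers of widest peaks 2, with the annotated 5' end only 2, with peaks that also lie at another gene's end left out 9, and with peaks within 200 bp merged 0, though merging turned the order of widths at Usp3 and Usp5. Of the 56 genes, 26 kept their class under all 9 alternatives that set classes (the last, adding tabulated starts, was chosen after the data were seen and changed 4). These 26 genes were 8 of the 25 in both lists, 4 of the 9 in the Znhit1_KO list alone, 1 of the 3 in the CTRL list alone and 13 of the 19 in neither. Usp14, Usp24, Usp25, Usp9x and Usp26 were among them. Between the Znhit1_KO list alone and the CTRL list alone, 0 genes moved in either direction. The median width stayed between 729 and 879 bp in the Znhit1_KO list and between 750 and 783 bp in the CTRL list, and the median log2 ratio between -0.12 and -0.00246. No paired analysis was possible because there is 1 list per genotype, and no replicate could be left out. Widths and presence of peaks both depend on depth, which is unknown here.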

Other observations

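Away from their own ends and tabulated starts, the Usp genes held 24 peaks in the Znhit1_KO list, in 16 genes, and 16 peaks in the CTRL list, in 13 genes. Their median width was 277.5 bp in the Znhit1_KO list and 347 bp in the CTRL list. In each list 4 of these peaks (16.7% in the Znhit1_KO list and 25% in the CTRL list) overlapped a peak of the other list, against 8.49% of 6523 such peaks over all genes in the Znhit1_KO list and 12.4% of 4453 in the CTRL list. They lay in Usp42, Usp44 and Usp54. Usp42, a protease of p53 and histones, held the widest of them in the Znhit1_KO list, a peak of 1094 bp, and one of 1001 bp at the same site in the CTRL list (chromosome 5, 143731788 to 143732881 and 143731943 to 143732943), 21463 and 21618 bp from the nearest gene end. Usp44, a protease of the mitotic checkpoint and of H2B, had 549 bp in the Znhit1_KO list and 841 bp in the CTRL list, and Usp54 had 559 bp in the Znhit1_KO list and 1058 bp in the CTRL list. Usp42 and Usp44 have no entry in the promoter table used, so whether these peaks lie at a start of their own gene was not tested. The other overlapping pair in Usp42 (295 bp in the Znhit1_KO list and 387 bp in the CTRL list) also overlapped the tabulated promoter of D130017N08Rik.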
